A study of Mus musculus with 8 samples.

Results

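Csmd3, Trio, Ctnnd2, Oxr1, Myo10, Retreg1 and Ank are 7 long genes of mouse chromosome 15, out of 776 protein-coding genes of that chromosome and 21631 of chromosomes 1 to 19 and X. They were chosen by the number of listed open chromatin regions in and around them, so the counts below describe them and carry no test. The regions came from ATAC-seq, in which a transposase inserts adapters where nucleosomes leave DNA accessible. The cells were Hepa-1c1c7, a mouse hepatoma cell line. They were kept for 72 h with potassium chromate, a source of hexavalent chromium; 2 libraries were made at each of 0.1, 0.5 and 1 µM, and another 2 from untreated cells (0 µM). Each treated dose has 1 list of regions for both of its libraries, with 14401 regions at 0.1 µM, 11130 at 0.5 µM and 15894 at 1 µM, and each list is named for that dose together with the untreated cells. No value below therefore has a replicate error, and all lists share the control. The 1 µM libraries carry another prefix (N503) than the rest (N502), which cannot be told apart from the dose. The read depth behind each list is unknown, and no source used here says whether a listed region was more open than in untreated cells. Separate cultures for libraries of equal dose are not mentioned in the labels. A listed region is no measure of expression. Among hepatocyte and hepatoma marker genes, Apoa2, Foxa2 and Cebpb had a region in the gene or within 10 kb of it in every list, Afp at 0.1 and 1 µM and Alb at 1 µM, while Apoa1, Ttr and Hnf4a had none.

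Open chromatin marks the starts of genes and, within long introns, enhancers and other control elements, so a long gene can hold many separate open sites. The 7 genes do not form a pathway. Myo10 encodes an unconventional myosin that walks to the tips of filopodia, Trio an exchange factor that activates small GTPases such as Rac, and Ctnnd2 delta-catenin, an armadillo protein of cell junctions known mainly from neurons. Retreg1 is a receptor that delivers endoplasmic reticulum to autophagy, and Oxr1 a TLDc domain protein that protects cells against oxidative stress. Ank is a membrane protein needed for the release of pyrophosphate, which restrains mineralisation, and Csmd3 a very large membrane protein with CUB and Sushi domains known mainly from the brain.

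Annotated start sites differed in whether a region lay over them, between genes and also among the starts of Myo10 and of Retreg1. The sequences show what lay under the regions at covered starts. RefSeq start windows (GRCm38.p6, 250 bases before to 50 after a transcript start) were matched for 5 of the 7 members, Myo10, Retreg1, Ank, Trio and Ctnnd2, with 9 windows in all. Of these windows, 5 were overlapped by a region at every dose and 4 at no dose. Over all 32619 windows of the genome, 3039 were overlapped at every dose and 26716 at none. Taken dose by dose, 13.1% were overlapped at 0.1 µM, 12.2% at 0.5 µM and 15.4% at 1 µM. The members were chosen for holding many regions, so their windows are no fair sample of starts. The windows overlapped at every dose are printed first, with the window of Ctnnd2, which no list touched, as the contrast. Each runs 5′ to 3′ on the gene's own strand, and capitals mark every GC box (GGGCGG, or CCGCCC on the other strand), the motif bound by SP and KLF factors. Overlapping GC boxes run together.
Myo10, first start, chr15:25622300-25622599 (+): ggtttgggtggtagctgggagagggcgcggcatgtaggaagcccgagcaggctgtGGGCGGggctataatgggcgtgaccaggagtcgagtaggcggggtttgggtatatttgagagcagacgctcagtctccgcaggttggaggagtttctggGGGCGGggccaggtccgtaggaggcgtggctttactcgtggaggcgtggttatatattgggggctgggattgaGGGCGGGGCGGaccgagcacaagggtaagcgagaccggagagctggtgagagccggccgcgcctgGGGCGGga
Retreg1, first start, chr15:25843048-25843347 (+): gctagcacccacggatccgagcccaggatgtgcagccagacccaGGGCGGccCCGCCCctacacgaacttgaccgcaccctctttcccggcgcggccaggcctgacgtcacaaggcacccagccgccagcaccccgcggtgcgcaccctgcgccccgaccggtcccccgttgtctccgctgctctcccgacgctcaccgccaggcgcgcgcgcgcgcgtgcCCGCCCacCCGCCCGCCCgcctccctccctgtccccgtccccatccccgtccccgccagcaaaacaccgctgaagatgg
Retreg1, second start, chr15:25933302-25933601 (+): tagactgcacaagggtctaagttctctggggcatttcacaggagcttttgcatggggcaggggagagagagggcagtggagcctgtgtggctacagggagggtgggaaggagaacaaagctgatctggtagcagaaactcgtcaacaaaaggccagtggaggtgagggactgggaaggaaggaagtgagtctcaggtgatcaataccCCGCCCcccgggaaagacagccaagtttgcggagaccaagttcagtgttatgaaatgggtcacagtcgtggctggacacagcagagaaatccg
Ank, chr15:27466427-27466726 (+): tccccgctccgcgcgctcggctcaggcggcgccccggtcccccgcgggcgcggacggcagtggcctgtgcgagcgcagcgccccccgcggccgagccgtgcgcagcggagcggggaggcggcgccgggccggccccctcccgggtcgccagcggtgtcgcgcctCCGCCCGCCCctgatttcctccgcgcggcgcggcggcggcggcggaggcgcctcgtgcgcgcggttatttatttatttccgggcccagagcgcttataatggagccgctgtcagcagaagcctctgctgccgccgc
Trio, chr15:28025799-28026098 (-): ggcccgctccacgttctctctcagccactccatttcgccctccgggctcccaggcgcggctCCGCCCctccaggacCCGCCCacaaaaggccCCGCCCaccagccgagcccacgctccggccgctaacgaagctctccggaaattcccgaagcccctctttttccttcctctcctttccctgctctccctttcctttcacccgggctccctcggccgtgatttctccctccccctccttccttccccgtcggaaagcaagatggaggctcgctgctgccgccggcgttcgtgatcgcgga
Ctnnd2, chr15:30172284-30172583 (+): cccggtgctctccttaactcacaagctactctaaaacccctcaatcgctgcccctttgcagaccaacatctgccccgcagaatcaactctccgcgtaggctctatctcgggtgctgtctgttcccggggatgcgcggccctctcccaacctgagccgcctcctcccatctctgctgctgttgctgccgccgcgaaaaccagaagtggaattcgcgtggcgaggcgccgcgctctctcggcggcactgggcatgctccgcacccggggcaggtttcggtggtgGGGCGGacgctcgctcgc

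The first start of Myo10 and of Retreg1 each held 5 GC boxes, Trio 3, Ank 2, and the second start of Retreg1 and the start of Ctnnd2 1 each. A GC box was present in 35.9% of all windows, in 69.3% of the 3039 windows overlapped at every dose and in 28.8% of the 26716 overlapped at none. The first windows of these genes were rich in G and C, at 64.7% in Myo10, 74.7% in Retreg1, 78.0% in Ank, 66.7% in Trio and 64.7% in Ctnnd2, against a median of 53.0% over all windows. Their CpG counts were 23, 37, 53, 28 and 28 in the same order, against a median of 7 over all windows and of 23 over those overlapped at every dose. The Ctnnd2 window thus had the base composition of the windows that were overlapped, and the nearest region lay 11, 10.7 and 30.2 kb away in order of dose.

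Later starts of Myo10 and Retreg1 were covered in part. The second start of Retreg1 had a GC content of 54.7% and only 6 CpGs, yet a region covered it in each list. The third and the fourth start of Retreg1 and the second start of Myo10, at 50%, 40.7% and 48.0% G and C, were covered in no list. A further 4 motifs were searched on both strands. The TATA box (TATAAA) was present in 13.7% of all windows. The AP-1 motif (TGANTCA) was present in 7.85%. The cAMP response element (TGACGTCA) was present in 1.80%. The core of the CTCF motif (AGGGGGC) was present in 10.7%. Among the 9 member windows, the TATA box was found in the second start of Myo10, the AP-1 motif in the third start of Retreg1, the cAMP response element in the first start of Retreg1 and the CTCF core in Ank, once each. AP-1 is a stress-induced factor and CTCF an insulator protein, but a match in these letters is a description and no evidence of binding.

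Regions over the starts were wider than the typical region at every dose. At Trio, whose start lies at the upper-coordinate end of the gene, they spanned 2164, 1408 and 2570 bp in order of dose. At Myo10 they spanned 1684, 1839 and 2178 bp, at the first start of Retreg1 1482, 634 and 1657 bp, at its second start 1366, 1112 and 1549 bp, and at Ank 1652, 706 and 1804 bp. All 15 of these regions contained the start itself, and each reached at least 550 bp upstream of it. At the first start of Retreg1 the 0.5 µM region ended 9 bp past the start. Lists can split such a site into neighbouring regions: summed over the merged site, the regions at the start of Trio came to 2418, 2433 and 2570 bp and those at the first start of Myo10 to 2127, 2038 and 2178 bp, so no order of doses is read from the widths. Median widths over the entire member set were 337, 349.5 and 380 bp, below every region over these starts. Oxr1 likewise had a merged site at every dose over its lower-coordinate end, at chr15:41446408-41449000, which was 2593 bp wide.

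**Figure D1:**
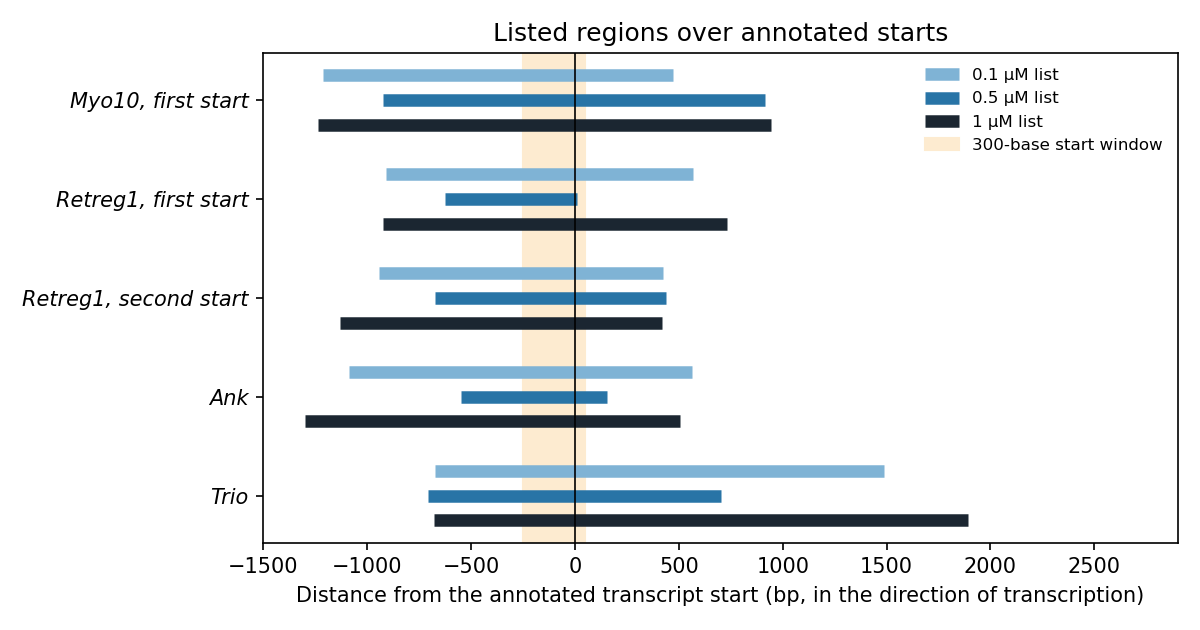
Extent of the listed region over each annotated start that had one, in bp from the transcript start along the direction of transcription, with 1 bar per dose (0.1, 0.5 and 1 µM from top to bottom) and the 300-base start window shaded. All bars cross the start, the longest at Trio (2570 bp at 1 µM) and the shortest at the first start of Retreg1 (634 bp at 0.5 µM).

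Counted over the gene body with 10 kb either side, the 7 windows cover 3367 kb, or 3.24% of the span of annotated genes on chromosome 15. They held 141 regions at 0.1 µM, 126 at 0.5 µM and 165 at 1 µM, which is 7.49%, 7.44% and 7.79% of the chromosome's regions. In density this was 4.19, 3.74 and 4.90 regions per 100 kb, against 1.73, 1.56 and 1.94 over the rest of chromosome 15, a ratio of 2.42, 2.40 and 2.52. The members were chosen for such counts, and the ratio is a description of that choice. All 7 genes had at least 1 region at every dose, as did 31.6%, 30.1% and 36.7% of all protein-coding genes in order of dose, taken dose by dose. Among the 2427 protein-coding genes of 100 kb or more the shares were 53.2%, 45.0% and 55.7%, and among the 101 such genes of chromosome 15 they were 88.1%, 88.1% and 91.1%. Holding a region is thus common for a long gene of this chromosome.

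The order by dose followed the length of the lists. Members' counts relative to 0.5 µM were 1.12 at 0.1 µM and 1.31 at 1 µM, against 1.29 and 1.43 for the whole lists and 1.11 and 1.25 for all of chromosome 15. With each list cut by score to the 11130 regions of the shortest, the order turned, with 103, 126 and 98 regions in the 7 windows at 0.1, 0.5 and 1 µM. No order of doses is read from these counts.

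By density the genes are described in 3 levels, a grouping made after the values were seen. The upper levels nearly met, at 7.10 per 100 kb in Myo10 (0.5 µM) and 6.98 in Trio (1 µM). Retreg1 held 14, 16 and 15 regions in order of dose, or 9.31, 10.6 and 9.97 per 100 kb. Ank held 13, 13 and 15, or 8.77, 8.77 and 10.1 per 100 kb, and Myo10 16, 15 and 26, or 7.58, 7.10 and 12.3 per 100 kb. These 3 genes overlapped in their ranges over doses, so their order is not separated. In the lists cut to equal length, the 1 µM value of Myo10 was 7.58 per 100 kb in place of 12.3.

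The next level was Trio with 18, 21 and 22 regions, or 5.71, 6.66 and 6.98 per 100 kb, and Oxr1 with 17, 23 and 27, or 3.92, 5.30 and 6.23 per 100 kb, whose ranges overlapped each other. Cut to equal length, the 1 µM value of Oxr1 was 3.23 per 100 kb. The lowest were Ctnnd2 with 22, 18 and 29 regions in 877 kb, or 2.51, 2.05 and 3.31 per 100 kb, and Csmd3 with 41, 20 and 31 regions in 1232 kb, or 3.33, 1.62 and 2.52 per 100 kb. Csmd3 thus had the most regions of any member at 0.1 and 1 µM and the lowest mean density. Cut to equal length, Csmd3 came to 1.54, 1.62 and 0.893 per 100 kb, so its high count at 0.1 µM rested on low-scoring regions.

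**Figure D2:**
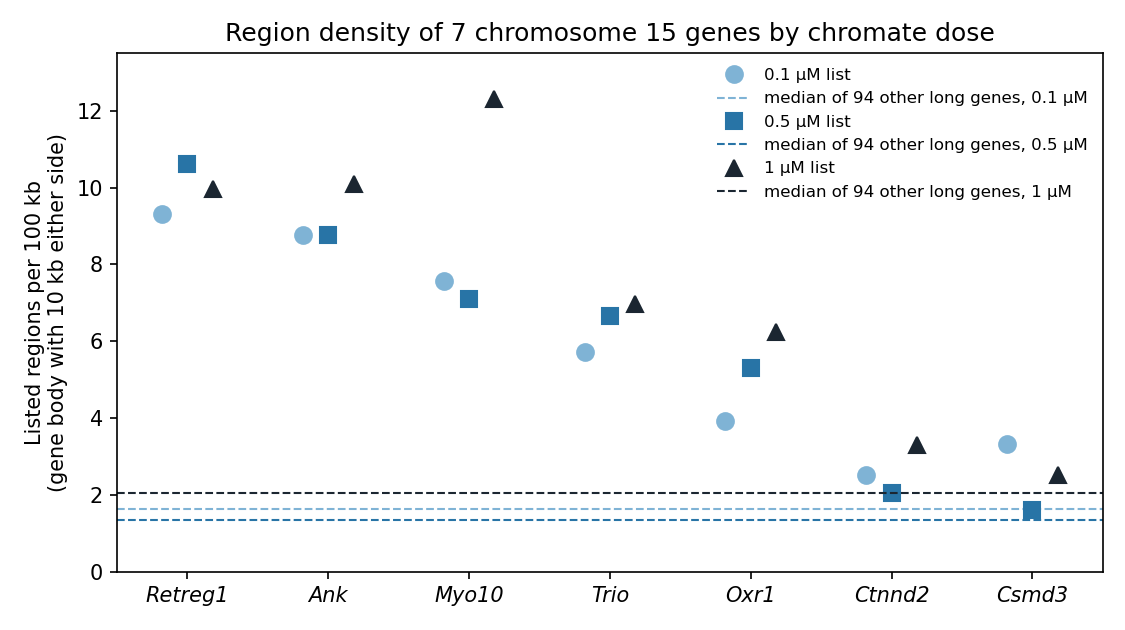
Listed regions per 100 kb of the gene body with 10 kb either side (y axis) for each of the 7 genes (x axis, ordered by mean), with 1 point per dose and dashed lines at the median of the 94 other chromosome 15 genes of 100 kb or more (1.63, 1.35 and 2.05 at 0.1, 0.5 and 1 µM). Retreg1, Ank and Myo10 lie at 7.10 or above in every list, and Ctnnd2 and Csmd3 at 3.33 or below.

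By rank among long genes of any length, the name of the set, genes full of regions, held for 5 members only. Among the 101 long genes of chromosome 15, ordered by mean density over the lists, Retreg1 ranked 1, Ank 3, Myo10 4, Trio 6 and Oxr1 11, while Ctnnd2 ranked 33 and Csmd3 36. Among all 2427 long genes Retreg1 again ranked 1 and Csmd3 135. The 94 other long genes of chromosome 15 had medians of 1.63, 1.35 and 2.05 regions per 100 kb, and the 2326 long genes of other chromosomes of 0.173, 0 and 0.267. Ctnnd2 and Csmd3 thus lay above the median of their chromosome at each dose, by little at 0.5 µM in Csmd3 (1.62 against 1.35). They are also the longest members, and rank was not separated from length. The non-member genes of chromosome 15 nearest to them in length were Cdh18 (928594 bp) and Cdh12 (1149544 bp). These had mean densities of 1.265 and 0.8265 per 100 kb, below 2.62 in Ctnnd2 and 2.49 in Csmd3.

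The non-member long genes of chromosome 15 most like the set in mean density over the 3 lists were Sybu (9.30 per 100 kb), a gene for a microtubule-associated protein, Lifr (6.83), the receptor of leukaemia inhibitory factor, Ano6 (5.70), a calcium-activated scramblase, Lrrc6 (5.67) and Rai14 (5.28). Sybu held 12, 10 and 16 regions, a density between those of Retreg1 and Ank on average. At the other extreme, Efcab6, Tcf20 and Scn8a, of 208, 179.7 and 176 kb, were among the genes with none in any list. Long genes of this chromosome therefore ran from none to a mean of 9.97 regions per 100 kb.

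**Figure D3:**
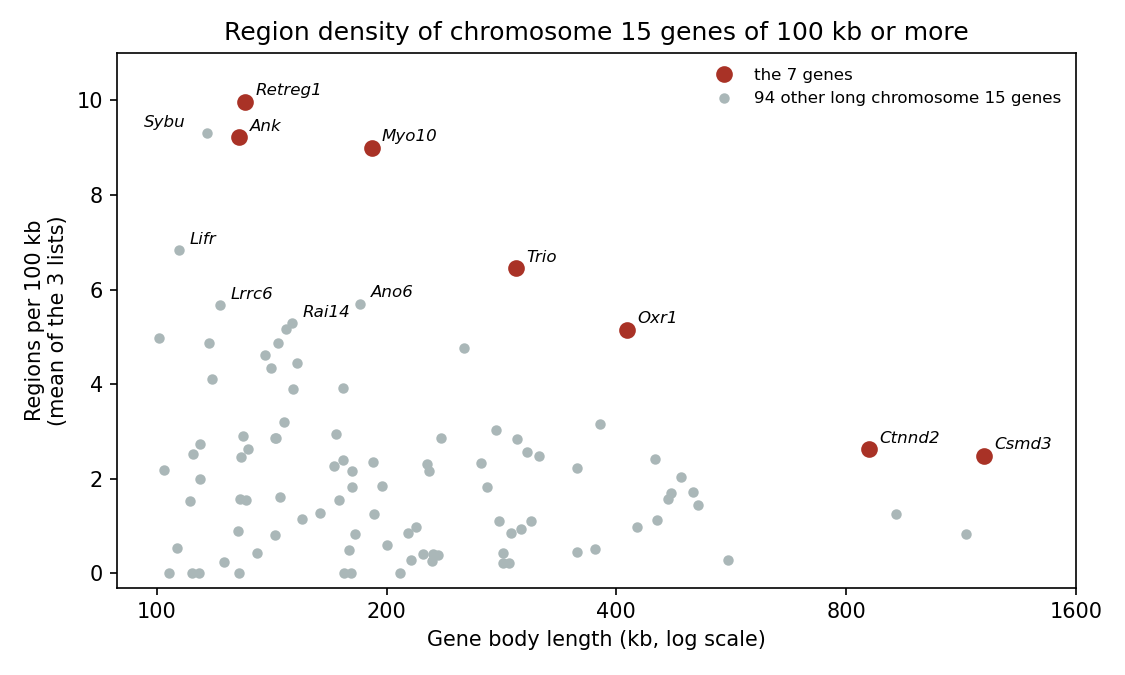
Mean density of listed regions over the 3 doses (y axis, regions per 100 kb) against gene body length (x axis, log scale) for the 101 protein-coding genes of chromosome 15 of 100 kb or more. The 7 genes are the larger points, from Retreg1 at 9.97 to Csmd3 at 2.49, and the 5 densest other genes are named, with Sybu at 9.30.

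The members do not lie in 1 block. Myo10 (chr15:25622550-25813673) and Retreg1 (chr15:25843298-25973696) are 29.6 kb apart, Ank (chr15:27466677-27594909) and Trio (chr15:27730649-28025848) 136 kb, and Ctnnd2 (chr15:30172534-31029344) lies 2147 kb beyond Trio. Oxr1 (chr15:41447482-41861051) follows 10418 kb further on, and Csmd3 (chr15:47580638-48792558) 5719.6 kb after that. The neighbourhoods were dense as well. In the 500 kb on either side of the window, Myo10 had 6.40, 5.70 and 6.10 regions per 100 kb and Retreg1 6.30, 5.40 and 7; each gene lies in the flank of the other, and the same holds for Ank and Trio. Both genes exceeded their flanks at each dose, as did Ank (flanks 3.50, 3.80 and 4), Trio (3.40, 3.60 and 4.40) and Oxr1 (3.30, 3.30 and 3.90). Ctnnd2 lay below its flanks in all lists (3.50, 3.90 and 3.80), and Csmd3 was close to them (3.10, 1.80 and 2.70). In Ctnnd2 the excess sat on the upper-coordinate side, with 28, 31 and 32 flank regions there against 7, 8 and 6 on the lower side.

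Within the genes, regions were unevenly spread. In Myo10 the 42.2 kb at the side of its first start held 8 of 16, 8 of 15 and 13 of 26 regions, and a stretch of 51.1 kb further in held no merged site. Split at the middle of the window, Myo10 had 9 of 16, 11 of 15 and 17 of 26 regions on the start side. In Trio the side of the start held 15 of 18, 18 of 21 and 15 of 22 regions, and the first merged site from the other end lay 49.5 kb into the gene. In Ank the start side held 11 of 13, 12 of 13 and 10 of 15. In Trio and Ank regions therefore lay mainly on the side where transcription starts, and in Myo10 the split was close to even at 0.1 µM. Retreg1 was close to even, with 7 of 14, 7 of 16 and 7 of 15 on the start side, and so was Ctnnd2, with 9 of 22, 8 of 18 and 14 of 29.

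Oxr1 and Csmd3 were compared by coordinate. Oxr1 had 8 of 17, 10 of 23 and 11 of 27 regions in the lower-coordinate part of its window when split at the middle, and at 0.5 and 1 µM each of 10 equal bins of 43.4 kb held a region. Csmd3 changed in layout between the lists. The upper-coordinate 369.6 kb of its window held 15 of 41 regions at 0.1 µM, 8 of 20 at 0.5 µM and 21 of 31 at 1 µM. The longest stretch of Csmd3 without any merged site was 136 kb, near the lower-coordinate end. With 1 list per dose this difference in layout has no replicate check.

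**Figure D4:**
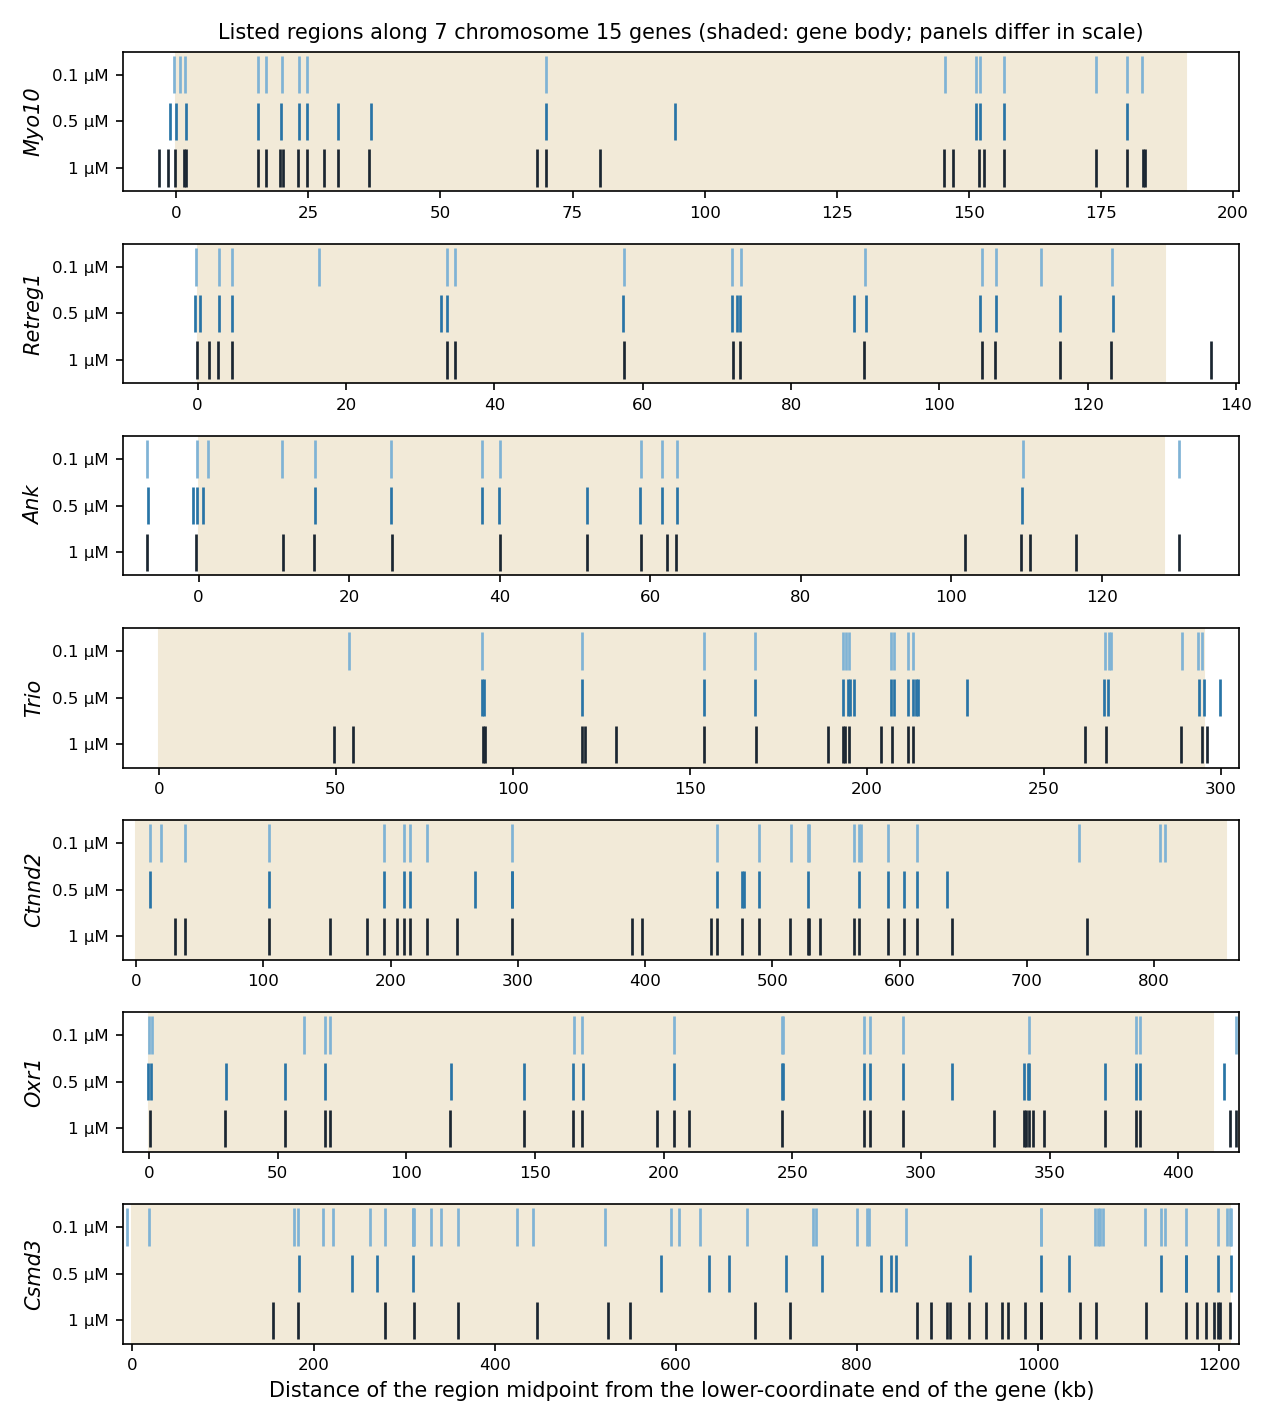
Midpoints of listed regions (vertical ticks) along each gene, in kb from the gene's lower-coordinate end, with rows for 0.1, 0.5 and 1 µM and the gene body shaded; panels differ in scale. Most sites of Retreg1 and Ank appear in all rows (11 of 19 and 9 of 17), while 64 of the 74 sites of Csmd3 appear in 1 row only, and its 1 µM ticks crowd toward the upper-coordinate side (21 of 31 in the last 369.6 kb).

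Regions of different lists that overlap by at least 1 bp were merged into sites, 235 in the 7 windows. Of these, 70 were listed at all 3 doses (29.8%, 95% Wilson interval 24.3 to 35.9), 31 at 2 doses and 134 at 1 dose. The share at all doses was 29.5% (27.9 to 31.2) of 2926 sites over the rest of chromosome 15 and 35.4% (34.7 to 36.1) of 17890 sites on other chromosomes. These intervals cover counting error only. As a set, the members were thus close to the rest of their chromosome, but they differed widely among themselves.

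Retreg1 had 11 of 19 sites at all doses (57.9%, 36.3 to 76.9) and Ank 9 of 17 (52.9%, 31.0 to 73.8). Trio had 11 of 28 (39.3%), Oxr1 12 of 31 (38.7%), Myo10 10 of 27 (37.0%) and Ctnnd2 11 of 39 (28.2%). The intervals of these 6 genes overlap. Csmd3 was lowest, with 6 of 74 sites at all doses (8.11%, 3.77 to 16.6, an interval that just meets that of Ctnnd2 at 16.5 to 43.8) and 64 at a single dose, 29 of them only at 0.1 µM, 13 only at 0.5 µM and 22 only at 1 µM. Without Csmd3 and Ctnnd2, a split chosen after these values were seen, 53 of 122 sites (43.4%, 35.0 to 52.3) were listed at every dose.

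Seen from each list, 53.9% of the members' 0.1 µM regions, 65.1% of their 0.5 µM regions and 41.2% of their 1 µM regions overlapped regions of both other lists, against 51.6%, 68.0% and 46.3% over the whole lists. In Csmd3 these shares were 14.6%, 25% and 16.1%. Of the sites listed at 1 dose, those only at 1 µM, the longest list, made up 10 of 12 in Myo10, 8 of 12 in Oxr1, 3 of 4 in Ank, 8 of 15 in Trio, 11 of 21 in Ctnnd2, 22 of 64 in Csmd3 and 2 of 6 in Retreg1, against 4060 of 9019 over all chromosomes. Since the lists share the untreated libraries, the part of the overlap that comes from them cannot be told apart.

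**Figure D5:**
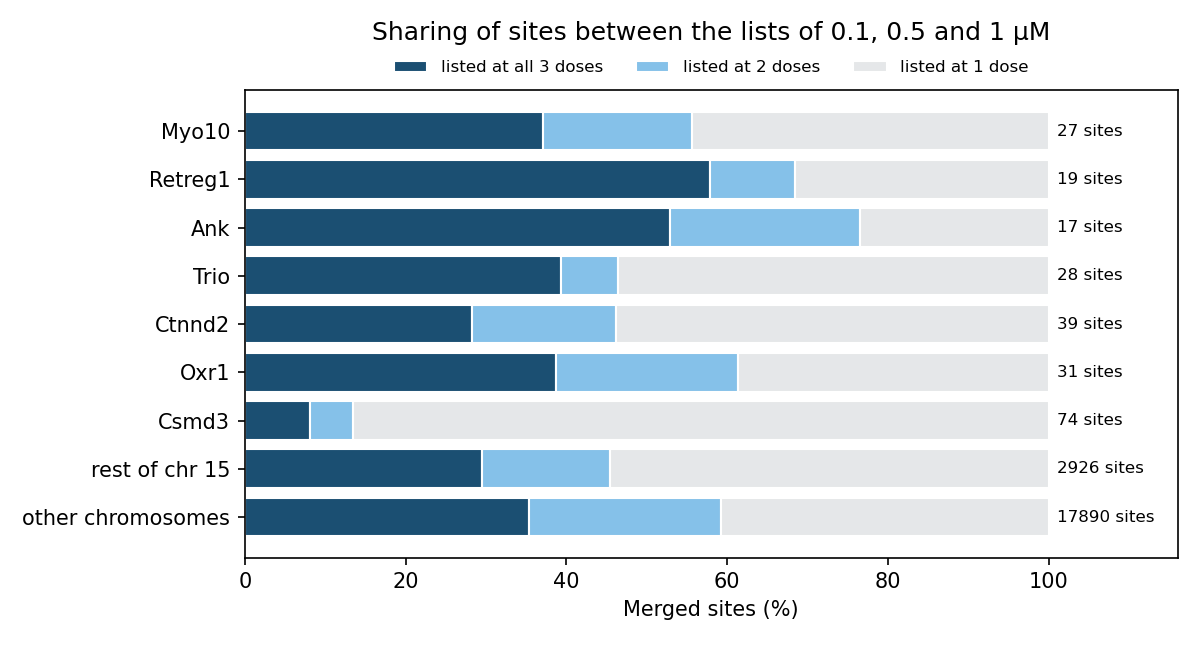
Share of merged sites (x axis, percent) listed at all 3, at 2 or at 1 of the doses 0.1, 0.5 and 1 µM for each gene, the rest of chromosome 15 and the other chromosomes, with the number of sites at the right. Retreg1 and Ank are highest at all doses (57.9% and 52.9%) and Csmd3 lowest (8.11%).

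Csmd3 also had the narrowest and lowest-ranked regions. The deposited score is a whole number of 4 or more whose scale is not stated, so it is used as a rank within a list. Median widths in Csmd3 were 246, 244 and 242 bp in order of dose, and the median region stood at the 22.8, 25 and 23.8 percentile of its list. In the other members median widths ran between 282 and 507 bp. Rank did not follow density there: Ctnnd2 stood at the 47.6, 49.3 and 47.5 percentile, against 52.7, 36.0 and 31.6 in the denser Myo10. Of the members' regions, 9.22%, 11.9% and 12.7% ranked in the top 10% of their list, against 10.9%, 10.9% and 10.1% over the rest of chromosome 15. None of the regions of Csmd3 or Ctnnd2 did so at 0.1 or 0.5 µM. At 1 µM, 1 region of Csmd3 and 2 of Ctnnd2 did. In Myo10, Retreg1, Ank, Trio and Oxr1 together 16.7%, 17.0% and 17.1% did.

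Sites at all doses were wide and those at a single dose narrow, with medians of 753 and 239 bp over the members. Over the rest of chromosome 15 the medians were 652 and 240 bp. A site spans all the regions joined in it, so sites of several lists are wider partly by construction. Wider regions also meet an overlap of 1 bp more easily, and width was not separated from sharing. Regions covered 5.32%, 5.35% and 6.59% of the Retreg1 window and 0.924%, 0.475% and 0.702% of the Csmd3 window.

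The highest-ranked site of each gene, by mean rank over the doses among sites listed at all of them, lay inside the gene body, away from its ends, in 6 of the 7. In Retreg1 it was chr15:25914917-25916083, 72.2 kb from the lower-coordinate end, scored 194, 138 and 254 at rising dose. In Oxr1 it was chr15:41611896-41612767, 165 kb in (107, 77 and 200), and in Myo10 chr15:25646784-25647835, 24.8 kb in (86, 63 and 109). These 3 ranked at the 98.3 percentile or above in every list. In Ank it was chr15:27506167-27507294 (86, 47 and 77), in Trio chr15:27923453-27924366 (50, 28 and 64), and in Ctnnd2 chr15:30762733-30763791 (24, 23 and 42). The positions are inside the gene bodies, but exons and introns were not told apart here.

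In Csmd3 the highest-ranked site, chr15:48792691-48793525 (scores 28, 12 and 60), lay just past the upper-coordinate end of the gene, where it overlapped the long non-coding RNA gene Gm34336. Inside Csmd3 the widest site, chr15:47890566-47891402, had scores of 5, 16 and 5. By score, then, the strongest site shared by all lists was just outside the Csmd3 body, which ends at position 48792558. The strand of Csmd3 was not given and no start window was matched, so whether this end is its start was not told. No order of doses is read from the scores, which differed between lists at some sites. Among the members' sites with 1 region in both lists of a pair and a mean width of 1000 bp or more, 1 of 2 (0.1 and 0.5 µM), 2 of 9 (0.1 and 1 µM) and 0 of 2 (0.5 and 1 µM) differed more than 4-fold. Among the narrower sites 1 of 54, 2 of 69 and 8 of 63 did so for the same pairs. The region over the first start of Retreg1, for instance, scored 17 at 0.1 µM and 126 at 1 µM. At 0.5 µM, where the list splits this site, it scored 72.

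The sites over starts were the widest of their gene in Myo10, Retreg1, Ank and Trio, and the site over the lower-coordinate end was the widest in Oxr1. They were not the highest-ranked, at mean percentiles of 75.2 in Myo10, 89.2 in Retreg1, 80.9 in Ank, 80.5 in Trio and 38.6 in Oxr1. The site over the end of Oxr1 scored only 16, 7 and 8. No site covered either end of Ctnnd2 or Csmd3, although the highest-ranked site of Csmd3 began just past its upper-coordinate end.

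Other genes share some of these windows. Gm29975, a protein-coding gene nested in Trio, overlapped 1 region at 1 µM and none in the other lists. Abra, a regulator of actin and serum response factor signalling just beyond Oxr1, overlapped 1, 1 and 2 regions of its window. Otulin, a linear ubiquitin deubiquitinase gene beside Ank, overlapped 1 region at 0.1 µM. Nested long non-coding RNA genes took few regions too, the most being 3, 1 and 4 for Gm41283 within Ctnnd2. The miRNA genes Mir7212 in Retreg1 and Mir7117 in Ank were overlapped in no list. Gm34336, at the upper-coordinate end of Csmd3, took 2, 1 and 1. Counts inside Gm41283 and Gm34336 are part of those given for Ctnnd2 and Csmd3.

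Relatives of the members held at most 7 regions in any list. Over 7 lists of related genes, which hold 34 genes beside the members, 13 had a region in the gene or within 10 kb at 0.1 µM, 11 at 0.5 µM and 19 at 1 µM (38.2%, 32.4% and 55.9%), against 31.6%, 30.1% and 36.7% of all protein-coding genes. Csmd1, the paralog of Csmd3 with a body of 1643 kb, held 1, 0 and 2 regions, and Csmd2, of 581 kb, none, against 41, 20 and 31 in Csmd3. Kalrn, the paralog of Trio with a body of 604 kb, held none in any list, against 18, 21 and 22 in Trio. Among the Trio family and related exchange factors, 0, 0 and 2 of 5 genes had a region. The MyTH4-FERM myosin genes Myo7a, Myo7b and Myo15 likewise held none, against 16, 15 and 26 in Myo10. High counts were thus not shared by the paralogs of Csmd3 and Trio, nor by these myosin genes.

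Members of the other families had some. In the delta-catenin and plakophilin family, Ctnnd1, the p120 catenin gene, held 4, 3 and 3 regions and Arvcf and Pkp2 1 in each list, and 4, 3 and 5 of the 6 relatives of Ctnnd2 had a region. In the TLDc family, Ncoa7 held 7, 2 and 5, and 2, 1 and 3 of the 4 relatives of Oxr1 had one. Among endoplasmic reticulum phagy receptors, 4, 5 and 6 of 8 had a region, Rtn3 and Calcoco1 at every dose, while Retreg2 and Retreg3 did not reach all lists. Calcoco1, itself on chromosome 15, held 1, 2 and 2. Of 6 further genes of phosphate and pyrophosphate handling, the phosphate importer gene Slc20a1 (2, 1 and 2) and the exporter gene Xpr1 (3, 2 and 1) had regions at every dose, and Enpp1, Alpl, Abcc6 and Slc20a2 had none. Short genes have short windows, so these counts are not densities. Per 100 kb, Ctnnd1 had 4.35, 3.27 and 3.27 regions, against 2.51, 2.05 and 3.31 in Ctnnd2, and Ncoa7 had 3.84, 1.10 and 2.75, against 3.92, 5.30 and 6.23 in Oxr1. Ctnnd1 was thus denser than Ctnnd2 at 0.1 and 0.5 µM, and Ncoa7 close to Oxr1 at 0.1 µM.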

How the data were processed

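ATAC-seq of Hepa-1c1c7 cells was deposited by the authors as 3 BED lists, 1 per treated dose, each with a score per region whose scale is not stated. The submitters' processing notes list Bowtie2, Picard, MACS2 and mm10 and state no version or role. The names of the lists carry tags for a q cutoff, filtering and unique regions or reads, which no source used here spells out, and the lowest deposited score is 4. How libraries were combined, how the control was used and whether reads were shifted for the transposase were not stated either. Lists were taken as given, so missed weak regions could change counts and sharing.

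Starts were converted to 1-based coordinates. A region was counted in a gene window (RefSeq GRCm38.p6 body with 10 kb either side) that held its midpoint, and regions of different lists overlapping by 1 bp or more were merged into sites (Python 3.11.15, pandas 2.3.3, scipy 1.17.1). Counting and merging were tested on simulated data. Doses were compared by description only, with no test. Named genes were the members, the 5 densest and 3 sparsest other chromosome 15 genes of 100 kb or more and the fixed lists of relatives. The members and lists were chosen with earlier results of these data known. Alternatives were other windows, any overlap, 50% of each list by score or width, equal list lengths and a reciprocal overlap of 50%. Start windows and sequences came from RefSeq. A marker gene is not reported here.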

Additional observations from a re-analysis of the deposited data

How the results depend on the processing

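Leaving out single libraries was not possible, since each dose has 1 list for both of its libraries, and no paired analysis was possible because the lists do not separate libraries. The gene body alone, 50 kb either side and any overlap of 1 bp left the counts of regions and sites within 1.5 times and the share at all doses within its interval. The higher-scoring 50% of each list left 63, 56 and 68 regions at 0.1, 0.5 and 1 µM and 88 sites, 44.3% of them at all doses, and the wider 50% left 69, 68 and 85 regions and 101 sites (41.6%); both keep fewer regions by construction. With lists cut to equal length, 1 µM fell to 98 regions. A reciprocal overlap of 50% lowered the share at all doses to 18.1%. Of the 21 gene densities, 17, 12 and 4 left their counting interval in the higher-scoring, wider and equal-length lists. All moved lower, which was fixed in advance because these settings only remove regions. The 0.5 µM list is the shortest, so its densities could not change in the equal-length lists. With the other windows or any overlap, 0 left their interval. Retreg1, Ank and Myo10 stayed the 3 densest members and Ctnnd2 and Csmd3 the sparsest in all 6 alternatives for regions. The order within these groups changed with the window. With 50 kb either side the windows of Myo10 and Retreg1, 29.6 kb apart, overlap. Regions in the shared stretch then count for both genes and again in the totals, so this setting is no separate check of the 2. Unknown depth limits all absences: an unlisted region is not shown to be closed.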
